A study of Homo sapiens with 10 samples.

Results

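The enCRISPRi-KL population (KL) was compared with the other K562 populations whose HS2 enhancer was targeted. KL comprised 2 of the 10 RNA-seq libraries of the series, chosen by their labels, and was set against 6 libraries, 2 each of dCas9-KRAB (K), dCas9-LSD1 (L) and enCRISPRi-LK (LK). All 8 carried sgHS2, and the remaining 2 libraries carried the nontargeting sgGal4. K562 is a myelogenous leukemia line of erythroid character. In KL, dCas9 is fused to the KRAB repressor domain and MCP brings LSD1 to the MS2 hairpins of the sgRNA, whereas LK has dCas9-LSD1 with MCP-KRAB, and K and L carry a single effector. The sgGal4 labels do not say which effector those cells carried. The methods describe doxycycline-inducible fusions and pools sorted by fluorescence after lentiviral transduction, with all 4 HS2 sgRNAs combined for RNA-seq. With one population for each effector set, the effector and the history of its population cannot be told apart. The study calls the libraries of a group experiments, but neither it nor the labels state that they came from separate cultures, so the p-values measure the spread between these libraries, which may be technical.

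HS2 is one of the enhancers of the β-globin locus control region, which lies upstream of the cluster and drives its embryonic gene HBE1, the fetal genes HBG1 and HBG2 and the adult genes HBD and HBB. KRAB recruits the corepressor TRIM28 with H3K9 methyltransferases, and LSD1, encoded by KDM1A, removes mono- and dimethylation from H3K4. Levels are given in TPM, a relative abundance in which each library adds up to the same total, as computed by the authors. Differences are in log2(TPM + 1), from KL minus the mean of the K, L and LK group means, and they understate the change of genes with low TPM. They were tested by limma, with the 5 groups fitted together and Benjamini-Hochberg adjustment over the 10127 genes that averaged 1 TPM or more, and a gene was called at an adjusted p under 0.05. Read depth is unknown, because TPM keeps no read totals.

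All 14 K562 and erythroid markers stood at 1 TPM or more in both KL libraries. Mitochondrial transcripts took 42.9% and 44.9% of the listed TPM in KL and between 39.9% and 46.7% over the HS2-targeted libraries. The libraries go against their labels in the effector genes. ZNF10, the source of the KRAB domain in common use, was read at 365 and 360 TPM in KL and at 128 and 136 TPM in L, which should carry no KRAB. It was read at 36.8 and 31.5 TPM in LK, at 1.18 and 3.80 TPM in K, and at 0.97 and 1.89 TPM in sgGal4. KDM1A stood at 105 and 84.2 TPM in L, at 26.8 and 26.6 TPM in KL, at 27.4 and 30.6 TPM in LK and at 29.2 and 27.7 TPM in K. Thus the libraries labelled KL had the highest ZNF10 of all 10 and no rise of KDM1A, and those labelled K had no rise of ZNF10. How much of a transgene these gene symbols can count is not given in the sources used here. The count of genes called in KL and the summed β-like globin were therefore also computed with K, L or LK left out of the reference.

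KL differed from the mean of the other HS2-targeted populations in 56 of 10127 genes (0.553%). Of these, 37 were higher in KL (0.365% of the genes tested) and 19 lower (0.188%). Besides ZNF10, the genes higher in KL with the largest differences included the long noncoding RNA RP11-1035H13.3, RAB27B, SLC18A2, LCP2, PAGE5, SCRT2, ARHGDIB, ETS1, PLCB2 and ATP2A3. The lower genes were led by ENAH, FAM47E, HDAC9, TWIST1, KLK13 and IGF1, and included HBE1, HBG1, HBG2 and fibronectin (FN1). In all 56 genes both KL libraries lay beyond all 6 others, as they did above in 669 (6.61%) and below in 566 (5.59%) of the genes tested. The median difference over all genes was 0.01, and 1090 of the 10127 genes had an unadjusted p under 0.05 by limma. The count was 42 without the libraries labelled K, 61 without L, 42 without LK and 59 with sgGal4 added to the reference. It rested on having both KL libraries: 9 genes were called without KL replicate 1 and 4 without replicate 2, where the lone library was assumed to vary like the other groups. Among the 56, the genes still called were HBE1, HBG1, HBG2, ZNF10, RAB27B, TWIST1, FN1 and GMPPA in the former case and HBG2, ZNF10, ENAH and FN1 in the latter, so each call named below and absent from both lists needed both KL libraries.

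**Figure D1:**
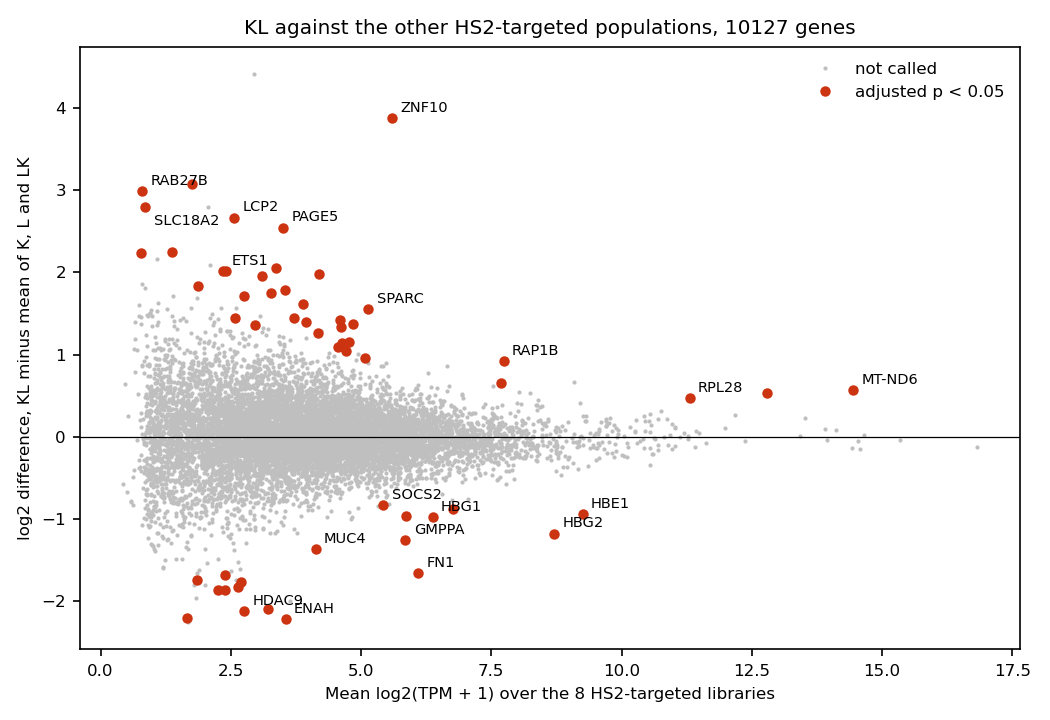
Difference of KL from the mean of K, L and LK (vertical axis, log2) against the mean level over the 8 HS2-targeted libraries (horizontal axis, log2(TPM + 1)), one point per gene. The 56 called genes (red) lie at both low and high levels, from RAB27B near the left edge to MT-ND6 near the right edge, and ZNF10 has the largest difference among them.

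Against single populations, KL differed from K in 17 genes (0.168%), from L in 28 (0.276%) and from LK in 39 (0.385%). These counts moved with single libraries. KL against K gave 4 genes without either K library, 10 without KL replicate 1, 4 without KL replicate 2, and 29 and 30 without sgGal4 replicates 1 and 2. KL against L gave 5 without either L library, 2 and 3 without KL replicates 1 and 2, and 17 without either LK library. KL against LK gave 3 without either LK library and 4 without either KL library. Measured in the same way, K differed from the mean of the other HS2-targeted populations in 1 gene (0.00987%), L in 16 (0.158%) and LK in 5 (0.0494%). These comparisons share libraries, and whether the counts differ was not tested. Of the 56 genes, 13 passed in none of the single-population comparisons, 24 in 1, 15 in 2 and 4 in all 3. Those 4 were the whole set of genes that differed from each population in the same direction (0.0395%): RAB27B, SLC18A2 and RAP1B were higher in KL and HBG2 was lower.

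RAB27B encodes a small GTPase that docks secretory granules and exosomes at the plasma membrane. It was at 5.90 and 8.77 TPM in KL, and between 0 and 0.15 TPM in the 6 other HS2-targeted libraries. The sgGal4 libraries were at 1.79 and 0.49 TPM, between the others and KL. The difference was 2.99 ± 0.38 (SE, limma, adjusted p = 0.00228). SLC18A2 encodes the vesicular monoamine transporter VMAT2, which loads serotonin and other monoamines into granules. It was at 7.37 and 6.20 TPM in KL, at 0.40 and 0.26 TPM in LK, at 0 and 0.09 TPM in K, and listed at 0 in L and sgGal4. Its difference was 2.80 ± 0.36 (SE, limma, adjusted p = 0.00228). SLC18A2 overlaps the listed gene PDZD8 on the opposite strand, and whether counting used strand is not given in the sources used here. RAP1B, a Ras-family GTPase of integrin signalling that is abundant in platelets, was at 337 and 349 TPM in KL and at 154 to 200 TPM in the 6 others. The sgGal4 libraries, at 282 and 295 TPM, were nearer to KL than to the other HS2-targeted populations. Its difference was 0.92 ± 0.12 (SE, adjusted p = 0.00228). The KL and sgGal4 libraries did not overlap either. RAP1B and SLC18A2 did not pass the threshold when either KL library was left out, and RAB27B did not pass without KL replicate 2.

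The upstream sequences of these 3 genes are shown because they were the genes higher in KL than in each other population. Each is the 150 bases before a RefSeq start site in GRCh38.p14, plus strand, from chr18:54717707-54717856 for the first of the RAB27B starts listed, chr10:117240964-117241113 for SLC18A2 and chr12:68610749-68610898 for RAP1B. Capitals mark matches on either strand to the core GATAA that is read by GATA factors, or to the GC box GGGCGG that is read by factors of the Sp family. The ETS core CCGGAA, which is read by ETS1 and its relatives, was searched as well on both strands. So was TGTGGT, the core of sites that are read by RUNX factors.
RAB27B: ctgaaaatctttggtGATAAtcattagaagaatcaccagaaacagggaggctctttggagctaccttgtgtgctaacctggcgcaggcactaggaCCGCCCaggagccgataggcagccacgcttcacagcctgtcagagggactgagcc
SLC18A2: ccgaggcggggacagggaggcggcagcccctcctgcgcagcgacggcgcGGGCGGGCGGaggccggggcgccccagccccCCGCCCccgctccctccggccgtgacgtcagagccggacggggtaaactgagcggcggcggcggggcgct
RAP1B: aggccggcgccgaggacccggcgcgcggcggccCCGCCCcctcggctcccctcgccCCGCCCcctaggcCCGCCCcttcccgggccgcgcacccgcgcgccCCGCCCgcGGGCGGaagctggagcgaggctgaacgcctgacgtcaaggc
The printed RAB27B stretch held 1 GATA core and 1 GC box, and that of its other listed start, chr18:54828327-54828476, held 0 matches to any of these motifs. SLC18A2 held 3 GC boxes, of which 2 overlap, and RAP1B held 5. Over the 35116 promoters of the table, a GATA core stood in 12.2% of such stretches, an ETS core in 11.1%, a RUNX core in 6.59% and a GC box in 36.8%. The matches are descriptions of letters and say nothing of binding.

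The β-like globin genes were lower in KL. HBE1 (hg19 chr11:5289575-5291175, minus strand) was at 384 and 361 TPM in KL, at 557 and 458 TPM in LK, at 695 and 759 TPM in K, and at 1019 and 986 TPM in L. The difference was -0.94 ± 0.11 (SE, limma, adjusted p = 0.000870), and it passed against K and L but not against LK (adjusted p = 0.230). HBG2 (chr11:5274418-5276011) was at 222 and 229 TPM in KL and at 365 and 421 TPM in LK, the next lowest group. K stood at 698 and 581 TPM and L at 554 and 519 TPM. Its difference was -1.18 ± 0.13 (SE, adjusted p = 0.000870), and it passed against each population, including LK (adjusted p = 0.0485). HBG1 (chr11:5269499-5271087) was at 58.9 and 40.6 TPM in KL and at 64.5 to 132 TPM in the 6 others (difference -0.98 ± 0.16 SE, adjusted p = 0.0115), and did not pass against LK (adjusted p = 0.462). HBG1 and HBG2 are near-identical and only reads with a single location were kept, so their split is uncertain. HBE1 and HBG1 were not called without KL replicate 2.

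The adult genes were not called. HBD stood at 20.3 and 15.2 TPM in KL, within the range of L and LK for replicate 1, and at 41.1 and 39.1 TPM in K (adjusted p = 0.328). HBB was listed at 0 and 2.25 TPM in KL and at 0 to 6.36 TPM in the others (adjusted p = 0.534). Thus 3 of 5 β-like genes were called lower, beside 0.188% of all genes, and the median of the 5 differences was -0.98 against 0.01 for all genes. The summed β-like globin was 667 ± 26.9 TPM (SD, n = 2) in KL, 990 ± 35.1 TPM in LK, 1543 ± 42.1 TPM in K, 1667 ± 56.5 TPM in L and 2437 ± 32.4 TPM in sgGal4. On the log2 scale the KL sum differed from the 6 others by -1.03. By a two-sided exact permutation test over 28 assignments this gave p = 0.0357, the smallest that the design allows, and 0.0536 after adjustment over the 3 sums and ratios tested, so it did not pass after that adjustment. Of 8 tested neighbours of the cluster on 11p15, 0 were called by limma (1 at an unadjusted p under 0.05), with a median of 0.03.

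None of the 4 tested α-like globin genes was called by limma (1 at an unadjusted p under 0.05), and their median difference was 0.45. HBZ, the embryonic α-like gene and the most abundant, was at 1457 and 1659 TPM in KL, above LK at 800 and 829 TPM and below L at 2712 and 1909 TPM. KL and K, at 1345 and 1340 TPM, did not overlap but their difference did not pass (adjusted p = 0.667), whereas that between KL and LK did (adjusted p = 0.0131). HBA1, HBA2 and HBQ1 were not called, and HBM was listed at 0 in all libraries. The ratio of summed α-like to β-like globin TPM was 2.36 and 2.78 in KL, 1.68 and 1.25 in L, 0.911 and 0.977 in K, and 0.877 and 0.942 in LK. KL had the highest ratio in both libraries (two-sided exact permutation p = 0.0357, 0.0536 adjusted over the same 3 tests), beside 0.489 and 0.440 in sgGal4.

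**Figure D2:**
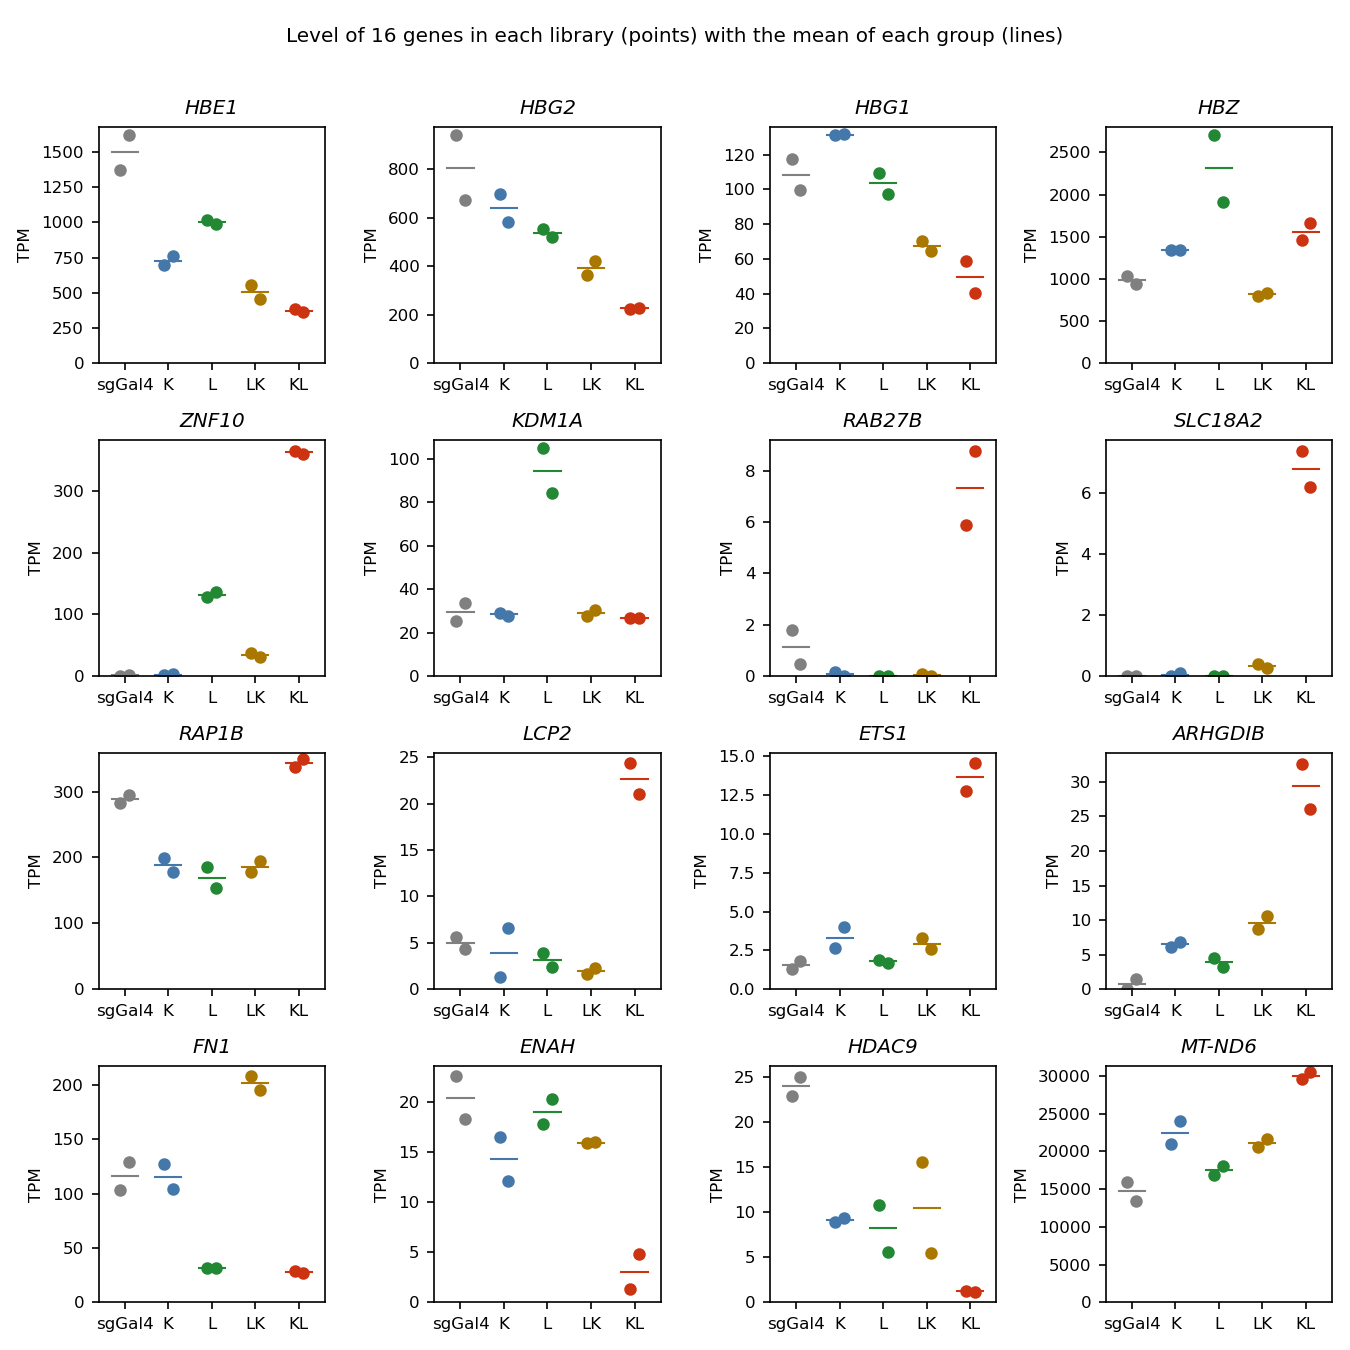
TPM (vertical axes, linear and starting at 0) of 16 genes in the 2 libraries of each group (points) with the group mean (lines). KL has the lowest HBE1, HBG2 and HBG1 and the highest ZNF10, RAB27B and SLC18A2 of all groups, whereas FN1 is equally low in L and RAP1B in sgGal4 is near KL.

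Several genes higher in KL are known from signalling and the cytoskeleton of blood cells, a grouping made after their values were seen and not tested. LCP2, the adaptor SLP-76 of T cell, mast cell and platelet receptors, was at 24.3 and 21 TPM in KL and at 1.35 to 6.57 TPM in the 6 others (difference 2.67 ± 0.40 SE, limma, adjusted p = 0.00705). PLCB2, a phospholipase downstream of G protein-coupled receptors, was at 17.1 and 11.6 TPM against 0.86 to 5.79 TPM. ARHGDIB, which encodes a GDP dissociation inhibitor of small GTPases in leukocytes, was at 32.6 and 26.1 TPM against 3.25 to 10.5 TPM, with sgGal4 lower still at 0 and 1.5 TPM. ATP2A3, a calcium pump of the endoplasmic reticulum in platelets and lymphocytes, was at 57.6 and 43.4 TPM against 5.60 to 18.4 TPM. The actin-binding genes COTL1 and TMSB4X were called higher as well, with differences of 1.37 and 0.65, and so were GMFG (1.33) and SRGN (1.05), the proteoglycan of secretory granules. In each of these genes both KL libraries also lay above both sgGal4 libraries, as in 34 of the 37 higher genes. The share over all genes was not computed.

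ETS1 and SCRT2, both higher in KL, encode transcription factors. ETS1 was at 12.8 and 14.6 TPM in KL and at 1.72 to 4.03 TPM in the 6 others (difference 2.02 ± 0.31 SE, limma, adjusted p = 0.00884). SCRT2, a zinc finger repressor of the Snail family, was at 6.79 and 7.87 TPM against 0.19 to 1.45 TPM. PAGE5, a cancer-testis antigen gene on chromosome X, was at 44.6 and 38.9 TPM against 2.02 to 13.3 TPM. Among secreted factors, ANGPT1, the ligand of the TIE2 receptor, was higher by 1.15, IGFBP4, which binds insulin-like growth factors, by 1.15, and SPARC, a matrix protein of platelets and bone, by 1.56. All 3 passed the test. Of the single populations, however, ANGPT1 passed only against L, IGFBP4 only against LK and SPARC only against K. In 11 of the 37 higher genes the 6 other libraries had a mean under 5 TPM.

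The genes lower in KL included regulators of the cytoskeleton, chromatin and matrix. ENAH, an actin regulator of the Ena/VASP family, was at 1.36 and 4.8 TPM in KL and at 12.1 to 20.3 TPM in the 6 others (difference -2.22 ± 0.31 SE, limma, adjusted p = 0.00462). FAM47E was listed at 0 in both KL libraries and at 0.73 to 8.0 TPM in the others, and it overlaps the read-through gene FAM47E-STBD1 on the same strand. HDAC9, a class IIa histone deacetylase, was at 1.28 and 1.21 TPM against 5.45 to 15.6 TPM, and sgGal4 was higher at 23 and 25.1 TPM. It was the only one of 9 histone deacetylase genes tested that was called, beside 0.553% of all genes. TWIST1, a helix-loop-helix repressor of mesenchymal cells, was at 3.03 and 1.41 TPM against 7.04 to 17.6 TPM. IGF1, a growth factor, was at 0.57 and 1.11 TPM against 4.63 to 6.99 TPM. SOCS2, a target and inhibitor of STAT5 signalling, was at 24.6 and 29.6 TPM against 38.8 to 61.9 TPM (limma, adjusted p = 0.0367). It was the only one called of 11 genes of BCR-ABL and STAT5 signalling, beside 0.553% of all genes.

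Matrix and surface genes lower in KL were not all particular to it. FN1 had the smallest adjusted p of the lower genes (difference -1.66 ± 0.15 SE, limma, adjusted p = 0.000144). However, KL at 28.7 and 27.4 TPM was near L at 31.7 and 31.3 TPM (KL against L, adjusted p = 0.866), and the difference came with K at 127 and 104 TPM and LK at 209 and 195 TPM. MUC4, a membrane mucin, was at 6.92 and 8.32 TPM in KL and at 13.1 to 29.6 TPM in the others, and did not pass against L (adjusted p = 0.286). LAMC1 and CRIM1 were called with differences of -1.76 and -1.74 (CRIM1 in 0 of 10 fits that left out 1 library), as were MXRA8 (-1.82), the peptidase gene KLK13 (-1.86) and ZNF493 (-1.68). GMPPA, a regulator of GDP-mannose synthesis, was at 32.0 and 26.2 TPM against 55.0 to 95.6 TPM (adjusted p = 0.00305). ALDH1A2, which makes retinoic acid, and the kinase gene MAP3K4 were lower by smaller differences, -0.88 and -0.97.

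**Figure D3:**
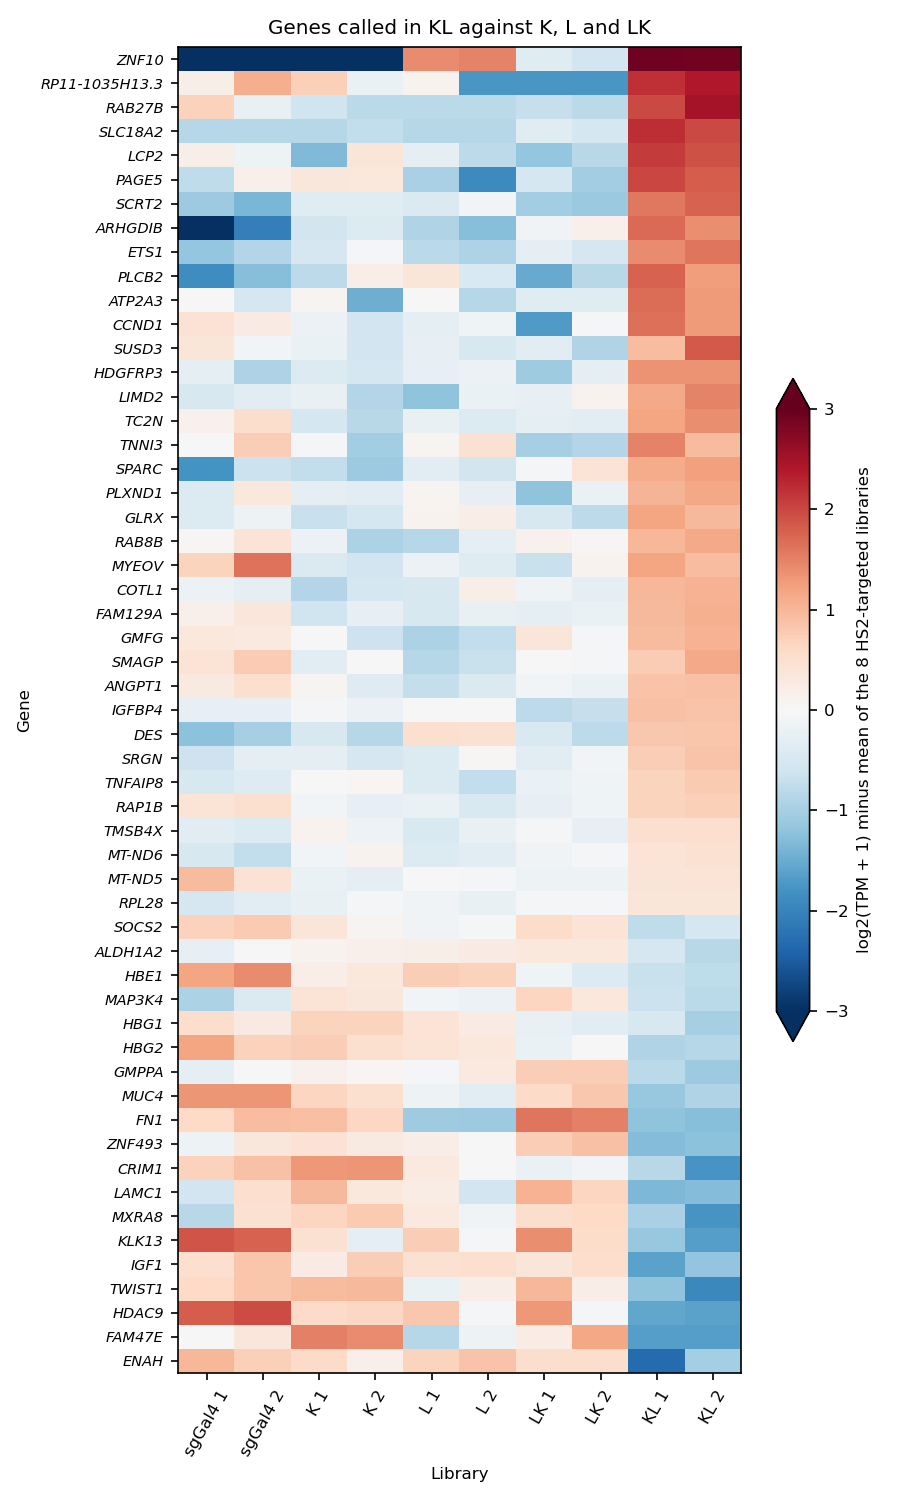
55 of the 56 called genes (rows, ordered by difference) in each library (columns), coloured by log2(TPM + 1) minus the mean of the 8 HS2-targeted libraries, with the scale closed at -3 and 3. The KL columns stand alone in most rows, while FN1 is also low in L and ZNF10 is also raised in L.

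The sgGal4 libraries were read to see whether KL or the other populations lay away from the control cells. Of the 37 genes higher in KL, the sgGal4 mean lay beyond the others, away from KL, in 14, between but nearer the others in 18, between but nearer KL in 3 and beyond KL in 2. Of the 19 lower genes the same counts were 12, 6, 1 and 0. In 34 of the 37 both KL libraries were above both sgGal4 libraries, and in 18 of the 19 both were below. The same share over all genes tested was not computed, and the calls favour genes with extreme KL values, so these counts only describe the called genes. Both sgGal4 libraries lay between KL and all 6 others in 9 of the 56 genes, beside 46 of all genes tested (0.454%). Every called gene already had KL beyond the 6 others, so nothing is read from the larger share. For most called genes KL stood away from sgGal4 as well. The genes on the KL side were RAP1B, ANGPT1 and SMAGP among the higher, with MYEOV and MT-ND5 beyond KL, and MAP3K4 among the lower.

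Other gene lists gave few calls. Their counts at an unadjusted p under 0.05 stand beside 1090 of all 10127 genes tested. Among 17 tested erythroid transcription factors and globin regulators 0 were called, with 5 at an unadjusted p under 0.05 and a median of 0.04. BCL11A, a repressor of γ-globin genes, was at 9.84 and 10.0 TPM in KL and at 1.58 to 4.75 TPM in the 6 others, but did not pass (limma, adjusted p = 0.144). RUNX1 (0.74, adjusted p = 0.113) and the GATA1 cofactor gene ZFPM1 (0.93, adjusted p = 0.310) lay above the 6 others and SOX6 (-1.10, adjusted p = 0.207) below, also without passing. GATA1 was listed at 0 in all 10 libraries, as were genes used by every cell such as TPI1, so a 0 in these files need not be an absence. Of 16 red cell membrane genes 0 were called (7 at an unadjusted p under 0.05), with a median of -0.14, and EPB41, at 145 and 148 TPM against 171 to 257 TPM, did not pass (adjusted p = 0.0892). Heme synthesis (0 of 11, and 0 at an unadjusted p under 0.05) and iron handling (0 of 15, 2 unadjusted) had medians of -0.10 and 0.06.

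Genes for the machinery of the effectors were not called. Of 8 KRAB corepressor genes 0 passed by limma, and 0 at an unadjusted p under 0.05, with a median of 0.02. Of 14 tested genes of LSD1 and CoREST complexes 0 passed (2 unadjusted), with a median of -0.00488. ATF4 targets, genes of the amino acid response, gave 0 calls of 24 (6 unadjusted) and a median of 0.27. Of them 20 had positive differences, beside 51.3% of all genes. Both KL libraries lay above the 6 other HS2-targeted libraries in 7 of them and below in 0, beside 6.61% and 5.59% of all genes. Among the rest, some positive differences came with KL near L. DDIT4 was at 49.9 and 35.4 TPM in KL and at 49.2 and 39.2 TPM in L. ASNS was at 39.0 and 39.6 TPM in KL and at 46.4 and 36.8 TPM in L. A shift of the list was not tested. The listed genes summed to 1064 to 1090 TPM in KL and 776 to 1010 TPM in the 6 others, and sgGal4 was above KL at 1180 to 1667 TPM. PSAT1, a serine synthesis enzyme, had the values closest to passing there, with 31.6 and 41.0 TPM in KL against 12 to 28.9 TPM (adjusted p = 0.101). All 7 tested interferon genes, of 22 listed, had positive differences, beside 51.3% of all genes, and 0 were called (2 unadjusted), with a median of 0.40. The 22 genes summed to 377 to 386 TPM in KL, 266 to 332.5 TPM in the 6 others and 352 to 412 TPM in sgGal4. Sterol synthesis gave 0 calls of 25 (6 unadjusted) and fatty acid synthesis 0 of 12 (2 unadjusted). The unfolded protein response gave 0 of 14 (0 unadjusted) and immediate early genes 0 of 10 (1 unadjusted). Glycolysis gave 0 of 16 (4 unadjusted) and replication and mitosis 0 of 29 (3 unadjusted). Medians of these lists lay between -0.25 and 0.06. Differences were positive in 9 of 25 sterol genes and 2 of 10 immediate early genes, beside 51.3% of all genes. The sterol genes summed to 463 to 481 TPM in KL, 505 to 568 TPM in the 6 others and 994 to 1282 TPM in sgGal4. The immediate early genes summed to 354.5 to 365 TPM, 380 to 453 TPM and 445 to 605 TPM in the same order. These shifts were not tested either.

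Markers of other blood cells were read because several higher genes are known from platelets and leukocytes. Of 15 megakaryocyte markers 5 were tested and 0 called (4 unadjusted), with a median of 0.74. MEIS1, at 20.8 and 12.8 TPM against 4.61 to 9.12 TPM, and ITGA2B, at 4.81 and 1.83 TPM against 0 to 1.23 TPM, were above all 6 others without passing (limma, adjusted p = 0.0948 and 0.198), and GP1BB was below them. The defining markers GP9, PF4 and VWF were listed at 0 in all 10 libraries. The summed megakaryocyte markers were at 73.5 to 90.9 TPM in KL and 71.5 to 120 TPM in the 6 others, and GP1BB, at 56.3 and 51.8 TPM in KL and 58.1 to 109 TPM in the others, made up most of the sum. FLI1, an ETS factor of megakaryocytes below the level tested, was at 0.39 and 1.73 TPM in KL and at 0 to 0.20 TPM in the others. The myeloid and leukocyte markers (7 of 18 tested, 0 called, 0 unadjusted) summed to 111 to 114 TPM in KL and 90.6 to 129 TPM in the others. The T cell markers (2 of 11 tested, 0 called, 1 unadjusted) summed to 2.68 to 12 TPM in KL and 3.90 to 29.1 TPM in the others, with CD3E, CD2, CD5 and LCK listed at 0. The B cell markers summed to 0 in KL and to at most 0.49 TPM in the others, and eosinophil, basophil and mast cell markers (2 of 10 tested, 0 called, 1 unadjusted) to 2.82 to 6.49 TPM in KL and 2.5 to 12.4 TPM in the others, with KIT listed at 0 in both KL libraries. In bulk RNA, a change in the share of cells and a change per cell cannot be told apart.

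Of 13 mitochondrial genes 2 were called, both higher, beside 0.365% of all genes called higher. MT-ND6 was at 29635 and 30489 TPM in KL and at 16933 to 23993 TPM in the 6 others (difference 0.57 ± 0.08 SE, limma, adjusted p = 0.00319). MT-ND5 was at 9358 and 9414 TPM against 5931 to 7052 TPM (limma, adjusted p = 0.0279), below sgGal4 at 13614 and 9519 TPM. Under 13 alternatives other than leaving out a library, MT-ND6 was called in 9 and MT-ND5 in only 5. The genes encode subunits of complex I and abut on opposite strands of the mitochondrial genome, and whether counting used strand is not given in the sources used here, so their reads may be shared. The median of the 13 genes was 0.02. Together with RPL28, a ribosomal protein gene at 3248 and 3239 TPM against 2168 to 2441 TPM (adjusted p = 0.0164), they were the most abundant genes called.

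**Figure D4:**
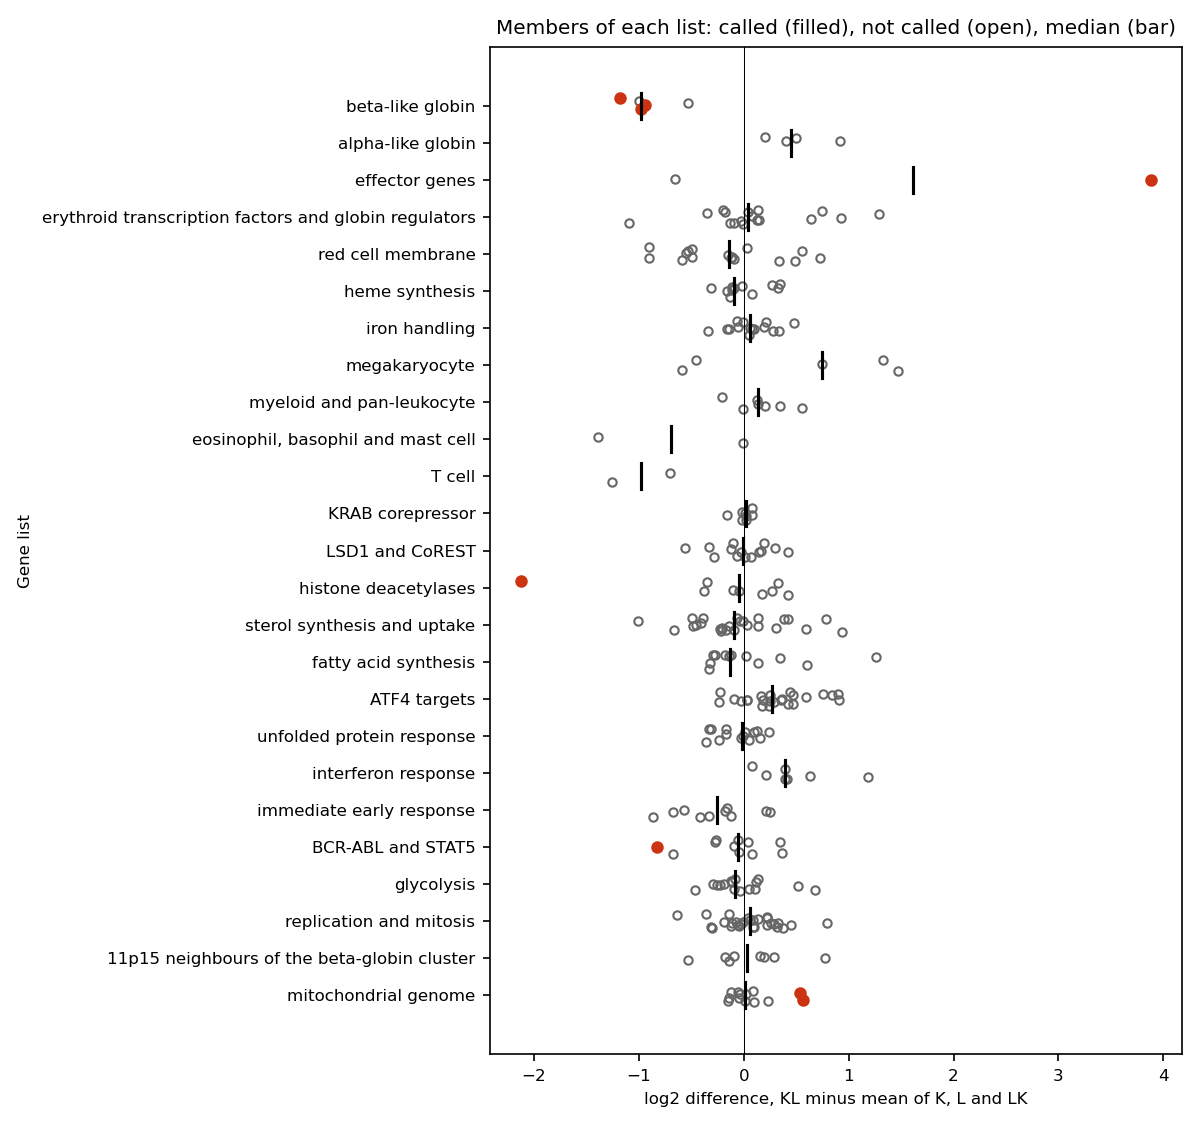
Difference of KL from the mean of K, L and LK (horizontal axis, log2) for the tested members of each gene list (rows), called (filled) or not called (open), with the list median as a bar. The called members are 3 β-like globin genes, ZNF10, HDAC9, SOCS2 and 2 mitochondrial genes; most list medians are near 0.

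Some called genes lie next to each other in hg19. HDAC9 and TWIST1, both lower, are 113 kb apart on chromosome 7 with 0 tested genes between them. MYEOV and CCND1, the cyclin D1 gene, both higher, are 274 kb apart on chromosome 11 with 0 tested genes between them. MYEOV was at 34.1 and 28.3 TPM in KL against 8.81 to 15.8 TPM in the 6 others, and CCND1 at 25.9 and 19.9 TPM against 1.63 to 7.18 TPM. DES and GMPPA on chromosome 2, 72.2 kb apart, differed in opposite directions, and TNNI3 and RPL28 on chromosome 19, both higher, had 10 tested genes between them. Apart from the globin genes and the abutting MT-ND5 and MT-ND6, these were all the pairs within 500 kb among the 55 called genes with coordinates. The pairs were not tested against other arrangements.

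By chromosome, the median difference of KL lay between -0.08 (chromosome 6, 453 genes) and 0.23 (chromosome 21, 98 genes). On chromosome 21, 78 of 98 genes had positive differences, beside 51.3% of all genes, and 0 were called. Both KL libraries lay above all 6 others in 17 of the 98 and below in 0, beside 6.61% and 5.59% of all genes. RUNX1, CSTB, IFNAR1 and HMGN1 were among the 17. The median of these genes, relative to each gene's mean over the HS2-targeted libraries, was 0.18 and 0.14 in KL and between -0.16 and 0.12 in the 6 others, of which K replicate 1 alone was above 0. It was -0.24 and 0.01 in sgGal4. For K, L and LK against the remaining populations, the medians of chromosome 21 were -0.01, -0.12 and -0.05.

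Over runs of 25 neighbouring tested genes, the highest median of KL, 0.49, was at the end of the long arm of chromosome 19 and the lowest, -0.38, near the end of the long arm of chromosome 7. The chromosome 19 stretch, with starts from 56102742 to 58193345, held 28 tested genes, mostly zinc finger genes such as ZNF134, ZNF444 and ZSCAN5A. In this stretch 26 genes had positive differences, 7 lay above the 6 others (6.61% of all genes), 1 lay below (5.59%) and 0 were called. Its median by library was 0.37 and 0.34 in KL, -0.30 to 0.03 in the 6 others, and -0.34 and 0.05 in sgGal4. The chromosome 7 stretch, with starts from 149169885 to 151832010, had negative differences in 22 of 27 genes. Positive differences stood in 5, beside 51.3% of all genes. Of its genes 5 lay below the 6 others (5.59% of all genes), 1 lay above (6.61%) and 0 were called. However, its medians by library, -0.05 and -0.12 in KL, were less far from the others at -0.01 to 0.11. In sgGal4 its medians were -0.41 and 0.08. The same runs spanned -0.39 to 0.34 for K, -0.32 to 0.31 for L and -0.25 to 0.33 for LK. These stretches were picked as the extremes, so they are descriptions with no test.

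**Figure D5:**
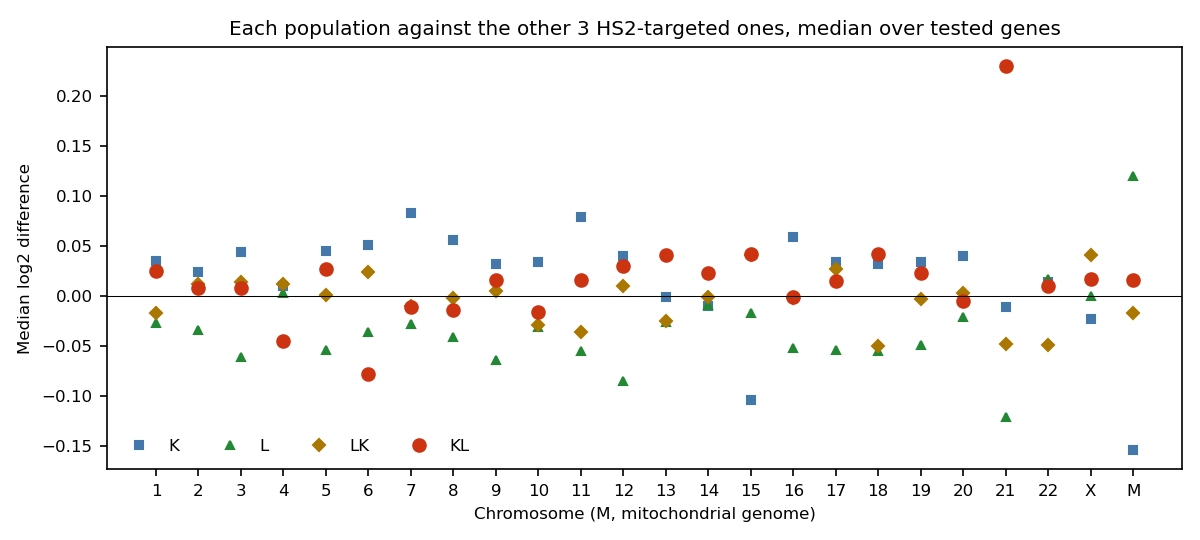
Median log2 difference over the tested genes of each chromosome (horizontal axis) for KL, K, L and LK, each against the other HS2-targeted populations. KL on chromosome 21, at 0.23, is the highest of the points, and most others lie within 0.1 of 0.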

How the data were processed

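RNA-seq of K562 cells was analysed in 10 libraries, with 2 in each of 5 groups named by the labels. The authors aligned reads to hg19 with STAR (version 2.5.2b, named in the submitters' processing notes), discarded reads with more than 1 location, and deposited RSEM estimates as 1 TPM value per gene and library. The annotation and strand setting are not given in the sources used here. The labels name poly(A) selection with a directional kit and the methods name the Ovation system. TPM keeps no read totals, so depth is unknown and no counting interval could be given; the study's DESeq2 step was not repeated.

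The deposited TPM values were turned into log2(TPM + 1) and fitted by limma 3.58.1 under R 4.3.3 (jsonlite 2.0.0) with a mean-variance trend, all 5 group means in 1 fit and 5 residual degrees of freedom, for 10127 of 20535 listed genes. Sums were tested by exact permutation (Python version 3.11.15, numpy 2.4.6, pandas 2.3.3, scipy 1.17.1, matplotlib 3.10.9). The fit was tested on simulated data with known changes. It called 20% of 100 genes changed by a log2 difference of 1 and 87% of 100 changed by 2, with 5 unchanged genes called. A gene that was not called is therefore not shown to be unchanged. Coordinates came from GENCODE mapped to GRCh37, in which 9972 tested genes were found, and promoters from RefSeq. Members and gene lists were chosen with earlier results of these data known. Genes were named by a rule: globin and effector genes, the 12 largest differences in each direction among called genes whose KL libraries lay beyond all 6 others, and every called list member (1 gene that the rule names is not reported here); the other genes named were chosen after their values were seen. The alternatives were a pseudocount of 0.1, no filter, a filter at 10 TPM, size factors, quantile normalization, removal of mitochondrial genes, no trend, a fit of 8 libraries, the replicate block, a minimum difference of 1, leaving out each library and, added after seeing the data, other reference groups.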

Additional observations from a re-analysis of the deposited data

Results flagged for a closer look

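In 8 of the called genes reported here, both KL libraries lay on one side of both sgGal4 libraries and all 6 K, L and LK libraries on the opposite side, an arrangement found in 0.454% of all genes tested. All called genes had KL beyond the 6 others, which favours it. Whether these effects against sgGal4 differ was tested only through the comparison of KL with the other populations. The genes higher in KL were RAB27B with a difference of 2.99, CCND1 with 1.96, SUSD3 with 1.84, TC2N with 1.72, FAM129A with 1.36, ANGPT1 with 1.15 and RAP1B with 0.92. ALDH1A2 was the one lower in KL, with -0.876. For RAP1B, sgGal4 was at 282 and 295 TPM, between KL at 337 and 349 TPM and the others at 154 to 200 TPM. ALDH1A2 was at 76.6 and 60.8 TPM in KL, at 91.4 and 107 TPM in sgGal4 and at 116 to 135 TPM in the others.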

How the results depend on the processing

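Of the 56 called genes, 3 (ZNF10, FN1 and HBG2) were called by limma whichever library was left out, and ZNF10 and FN1 under every other alternative too. Many calls depended on libraries of other groups as well as on KL, among them MXRA8, LAMC1, SRGN, SOCS2, MYEOV and MT-ND5. No called, globin or effector gene was reversed under the alternatives run. Other named genes were not followed. The count of 56 fell to 31 with no filter on low values, of which only 17 were among the 56. It fell to 29 without a mean-variance trend, of which 25 were among the 56. The cause was not tested. Leaving out 1 library gave between 4 and 71 calls. The lowest were 9 and 4 without a KL library. Size factors gave 65 calls (38 higher and 27 lower), and quantile normalization and removal of the mitochondrial genes gave 67 and 63, within 1.5 times the count. The replicate block gave 46 calls, of which 44 were among the 56; same-numbered libraries of different groups had correlations between -0.0213 and 0.0229 of their deviations, so the numbers did not pair them. The difference in summed β-like globin was between -1.134 and -0.9691 when 1 library was left out. It was -0.9457 without the libraries labelled K, -0.8896 without L and -1.266 without LK (exact permutation p = 0.133, 0.133 and 0.0667), where 2 libraries against 4 cannot give a p below 0.0667. The counts for K, L and LK against the rest, 1, 16 and 5, moved by over 1.5 times under several alternatives: K gave 9 with no filter, L gave 2 with no filter and 0 without L replicate 1, and LK gave 1 without a trend. Unknown depth limits every gene of low TPM.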

Other observations

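HIST1H2AD, a replication-dependent histone gene chosen after its values were seen, had the largest difference of KL from the other HS2-targeted populations, 4.41, without passing (limma, adjusted p = 0.272). It was at 106 and 52.6 TPM in KL, listed at 0 in both K libraries, at 120 and 0 TPM in L, at 16.2 and 0 TPM in LK and at 255 and 7.88 TPM in sgGal4, so libraries of the same group differed by as much as the groups did.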
